A study of Mus musculus with 4 samples.

Results

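The genes described here encode 9 scaffold proteins of the excitatory postsynapse: Shank1, Shank2, Shank3, Homer1, Homer2, Homer3, Dlg2, Dlg3 and Dlg4. They were taken by name out of 22911 genes with a named probe on the array, and each of the 9 was measured, by 21 probes in all. The samples were total RNA of female mouse dorsal hippocampus, collected once the animals had gone through behavioural testing. Of the 4 one-colour arrays, 2 held control RNA and 2 held RNA of a group with 20-fold iodine intake, each as replicates 2 and 3. Strain, age, the length of the iodine intake and the iodine content of the control diet are not given in the labels. The labels do not say that replicates were separate animals, so the p-values speak only of the spread among these 4 samples, some or all of which may be technical. Tissue RNA cannot tell fewer cells of a type from less RNA per cell.

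The postsynaptic density is the protein meshwork beneath the receptors of an excitatory synapse. The Dlg proteins (members of the MAGUK family, with PDZ domains) hold receptor and adhesion molecule tails at the membrane, the Shank proteins form a deeper layer joined to them by adaptors of the Dlgap family, and the Homer proteins tie Shank to metabotropic glutamate receptors and to calcium channels of internal stores. A short form of Homer1 is induced by neuronal activity and loosens those links, whereas the long forms build them. Thyroid hormone, which is made from iodine, is required for brain development, and the comparison asks whether expression in the hippocampus differed after excess iodine.

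Of the 21 probes 12 were brighter on both iodine arrays than on either control, by 1.44-fold at most, where 23.2% of all probes were. These 12 covered every gene of the set but Dlg3, with Dlg4 included only by its dimmest probe and a very small margin. The log2 signal of that probe was 5.3387 on control replicate 3 and 5.3396 on 20-fold iodine replicate 3. The Dlg2 probe A_55_P2793723 was as close, at 7.8447 and 7.8456 on the same arrays, but other Dlg2 probes were also among the 12. On both iodine arrays 2 probes were dimmer than on either control, where 18.4% of all probes were. The brightest probes of Dlg2, Dlg3 and Dlg4 had negative differences, although other probes of Dlg2 and Dlg4 were among the 12. None of these differences passed the test. The threshold of 0.05 on the adjusted p was passed by 0 of the 21 probes (limma, two-sided, Benjamini-Hochberg over 38228 probes), against 0% of all probes, and the smallest adjusted p among the 21 was 0.518. By unadjusted p under 0.05 the count was 6 of 21, all brighter in iodine, where 9.03% of all probes had such a p (5.89% brighter and 3.14% dimmer in iodine). These 6 probes belong to Shank1, Shank2, Shank3, Homer1, Homer3 and Dlg2. In Shank1, Shank2, Homer1 and Dlg2 the probe was the dimmest of its gene. The brightest probes of those genes had no such p, and that of Dlg2 was dimmer in iodine. Probes of a gene share its transcripts, so the 21 are not independent. The count was 1 without control replicate 2, 2 without control replicate 3, 0 without 20-fold iodine replicate 2 and 3 without 20-fold iodine replicate 3. With all arrays it was 4 after quantile normalization, 4 after median scaling, 2 with a replicate block, 7 with an intensity trend and robust variances, and 8 with normexp background correction. The share of 9.03% is that of the main setting, so the counts of the other settings cannot be set against it. In some settings 1 dimmer probe was among the probes counted. This was the brightest of Dlg2 with normexp, median scaling and the intensity trend, and the brightest of Dlg4 without control replicate 2. With 2 arrays a group, an exact permutation test of a single probe cannot go below p = 0.333.

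All 21 probes were well above background on all 4 arrays. Values below are log2 signals after each array was scaled to its 75th percentile, and differences are 20-fold iodine minus control on that scale. A probe's level depends on its own sequence, so levels are compared between arrays and never between probes. Where a gene had several probes they are named in order of brightness.

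**Figure D1:**
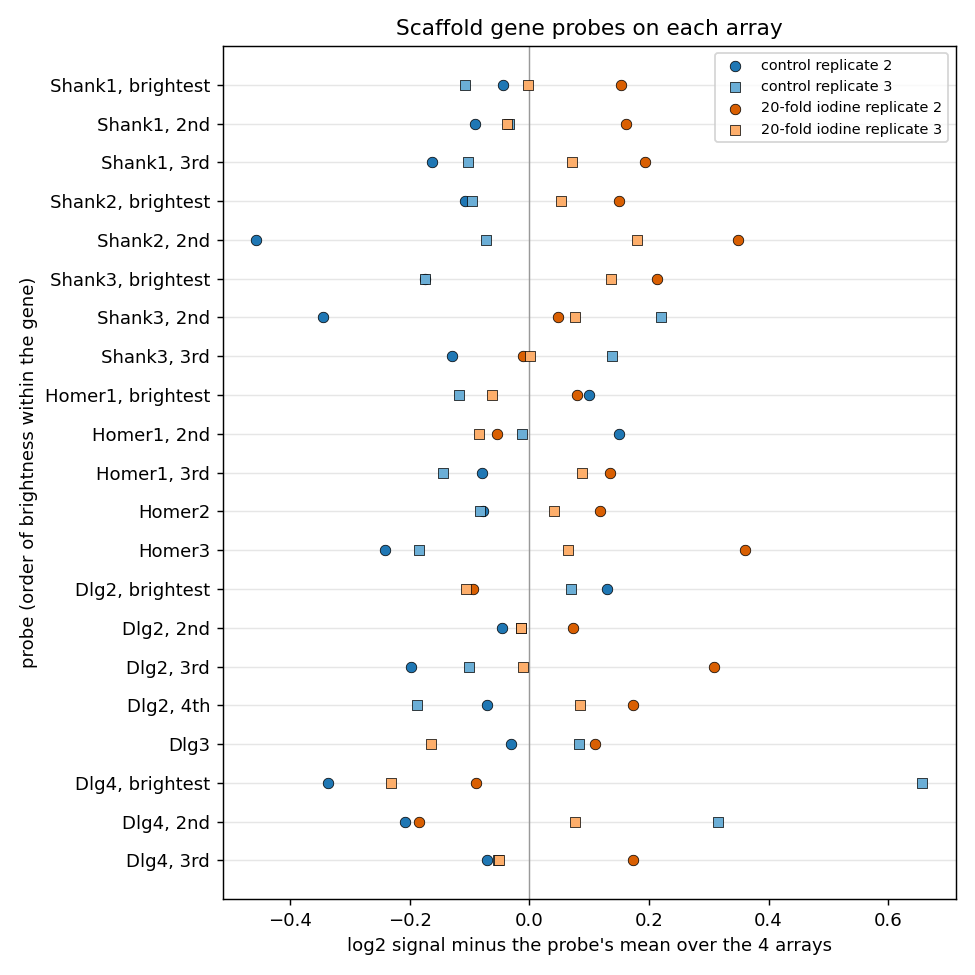
Log2 signal of each of the 21 scaffold gene probes on each of the 4 arrays, as the deviation from that probe's mean over the arrays (x axis); circles are replicate 2, squares replicate 3, blue control, orange 20-fold iodine. The 20-fold iodine replicate 2 array was the highest in 14 of the 21 probes and control replicate 3 stands far to the right for the brightest Dlg4 probe; the controls of the brightest Shank3 probe lie on top of each other.

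Shank3, the scaffold whose loss is a known cause of autism-related disorder, had the smallest unadjusted p of the set in its brightest probe. This probe, A_51_P115626, read 10.16 on each control array, against 10.54 and 10.47 with iodine. The groups did not overlap, and the controls were as good as identical. The difference was 0.35 ± 0.08 (SE, n = 2 per group), or 1.27-fold (95% confidence interval of the log2 difference 0.13 to 0.57), with unadjusted p = 0.0112 and adjusted p = 0.518 by limma. It lay between 0.31 and 0.39 over the settings that altered background correction or scaling or left out an array. The probe filters, the variance model and the replicate block cannot change the difference itself.

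The other Shank3 probes had smaller differences. The second read 4.19 and 4.75 in controls and 4.58 and 4.61 in iodine, a difference of 0.12 ± 0.21 (SE). That difference was -0.16 without control replicate 2 and 0.41 without control replicate 3 (unadjusted p = 0.0311, limma). The third read 4.01 and 4.28 against 4.13 and 4.14, a difference of -0.01 ± 0.12 (SE). On both, the iodine arrays lay between the controls. Both were dim: the processed signal of the third was 16.8 to 19.7 on the 4 arrays, where the brightest probe had 1160 to 1473. Set against the brightest probe on each array, the third probe had a log2 difference of -0.36 (interval -0.68 to -0.03, unadjusted p = 0.0367, limma adjusted p = 0.341 over 7807 probe pairs).

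Shank1, a close relative enriched in brain, had 3 probes with positive differences. The brightest read 7.63 and 7.57 in controls and 7.83 and 7.67 in iodine, without overlap, for a difference of 0.15 ± 0.10 (SE). The second overlapped, with 6.50 and 6.56 against 6.76 and 6.56 and a difference of 0.13 ± 0.10 (SE). Without 20-fold iodine replicate 2, these differences were 0.074 for the brightest and 0.026 for the second. The third and dimmest read 4.35 and 4.41 against 4.71 and 4.59, a difference of 0.26 ± 0.09 (SE) with unadjusted p = 0.0395 (limma adjusted p = 0.543). The intervals of the differences between these probes spanned 0, from -0.27 to 0.22 for the second against the brightest and from -0.13 to 0.36 for the third.

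Shank2, another member of that family, was likewise brighter on both iodine arrays with each probe. Its brightest probe read 7.57 and 7.58 in controls and 7.83 and 7.73 in iodine, a difference of 0.20 ± 0.08 (SE; unadjusted p = 0.0695, limma adjusted p = 0.581). The second read 3.86 and 4.25 against 4.67 and 4.50. Its difference of 0.53 ± 0.16 (SE), or 1.44-fold, was the largest of the 21 in size (limma adjusted p = 0.532). That probe was also among the dimmest, with processed signals of 15.2 to 25.1, and its difference was 0.18 with normexp background correction and 0.72 without control replicate 3.

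Homer3, a Homer protein that in brain is best known from the cerebellum, had a single probe. The controls read 6.47 and 6.52 and the iodine arrays 7.07 and 6.77, so the groups were apart, with 20-fold iodine replicate 2 well above the rest. The difference was 0.43 ± 0.13 (SE), or 1.34-fold (unadjusted p = 0.0275, limma adjusted p = 0.532), and it was 0.28 without 20-fold iodine replicate 2. Homer2, also with a single probe, read 7.96 and 7.95 against 8.16 and 8.08. The groups did not overlap, and the difference was 0.16 ± 0.08 (SE; limma adjusted p = 0.639).

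Homer1 was measured by 3 probes, each annotated to a different RefSeq transcript of the gene. Which of them reads the short, activity-induced form was not determined here, because probe sequences were not used. The brightest (A_55_P1982111, transcript NM_147176) read 9.42 and 9.20 in controls against 9.40 and 9.26 with iodine. The groups overlapped, and the difference was 0.02 (interval -0.30 to 0.34).

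The remaining Homer1 probes separated the groups in opposite directions. The second (A_52_P151211, transcript NM_152134) was dimmer in iodine, at 7.69 and 7.53 against 7.49 and 7.46, a difference of -0.14 ± 0.10 (SE; limma adjusted p = 0.713). The third (A_55_P2122789, transcript NM_011982) was brighter in iodine, at 7.36 and 7.30 against 7.58 and 7.53, a difference of 0.22 ± 0.08 (SE; unadjusted p = 0.0489, limma adjusted p = 0.552). Set against the brightest probe, the pair differences were -0.16 (interval -0.40 to 0.09) and 0.21 (interval -0.06 to 0.47), and both intervals included 0. These last probes were not tested against each other.

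Dlg4 encodes PSD-95, the most studied scaffold of the excitatory synapse. Its brightest probe read 9.21 and 10.20 in the controls against 9.45 and 9.31 with iodine. Control replicate 3 stood 1.68-fold above the next array, and the remaining 3 arrays lay close together. Among the brightest probes of 16793 genes, 0.738% had a highest array set apart by that much or more, a margin chosen after the Dlg4 value was seen. The spot carried no outlier flag, and the 31 tested probes within 3 rows and columns of it had a median deviation of -0.03 on that array, against 0.66 for Dlg4.

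The spread between the controls set the error of Dlg4. The difference of the brightest probe was -0.32 ± 0.35 (SE; interval -1.28 to 0.64), and it changed sign to 0.18 without control replicate 3 and was -0.82 without control replicate 2. The second probe was also highest on control replicate 3, at 5.61 and 6.14 in controls and 5.64 and 5.90 in iodine, with a difference of -0.11 ± 0.21 (SE). The third did not single out that array, at 5.32 and 5.34 against 5.56 and 5.34, with a difference of 0.12 ± 0.11 (SE).

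Dlg2, which encodes PSD-93, gave the smallest p for a disagreement between probes. The brightest (A_52_P89049) was dimmer on both iodine arrays, at 9.50 and 9.44 in controls and 9.28 and 9.27 in iodine, a difference of -0.20 ± 0.08 (SE; unadjusted p = 0.0628, limma adjusted p = 0.574). The fourth (A_55_P2716371) was brighter on both, at 5.62 and 5.50 against 5.86 and 5.77, a difference of 0.26 ± 0.09 (SE; unadjusted p = 0.0453, limma adjusted p = 0.548). The arrays of the groups were apart in both probes, in opposite directions.

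The middle probes of Dlg2 also had positive differences. The third read 6.73 and 6.83 against 7.24 and 6.92, a difference of 0.30 ± 0.14 (SE), and the second read 7.81 and 7.84 against 7.93 and 7.85, a difference of 0.06 ± 0.08 (SE). The second was at -0.015 with normexp background correction, and without 20-fold iodine replicate 2 the second was at 0.016 and the third at 0.14. All 4 probes are annotated to the same transcript, NM_011807. Relative to the brightest probe the difference was higher by 0.26 for the second (interval 0.02 to 0.50), 0.50 for the third (0.13 to 0.87) and 0.46 for the fourth (0.23 to 0.69). Unadjusted p-values were 0.0386, 0.0179 and 0.00424, and limma adjusted p-values over all pairs 0.343, 0.295 and 0.255, so none passed. With normexp background correction the pair of the fourth and the brightest did (0.33, adjusted p = 0.0442), and 148 of all pairs passed in that setting.

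Dlg3 encodes SAP102, the Dlg protein prominent in young synapses. Its single probe read 11.79 and 11.90 in controls against 11.93 and 11.65 with iodine. The iodine arrays bracketed the controls, and the difference was -0.05 (interval -0.40 to 0.29). Its sign depended on single arrays: it was -0.19 when 20-fold iodine replicate 2 was left out, 0.003 when control replicate 3 was and 0.083 when 20-fold iodine replicate 3 was.

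**Figure D2:**
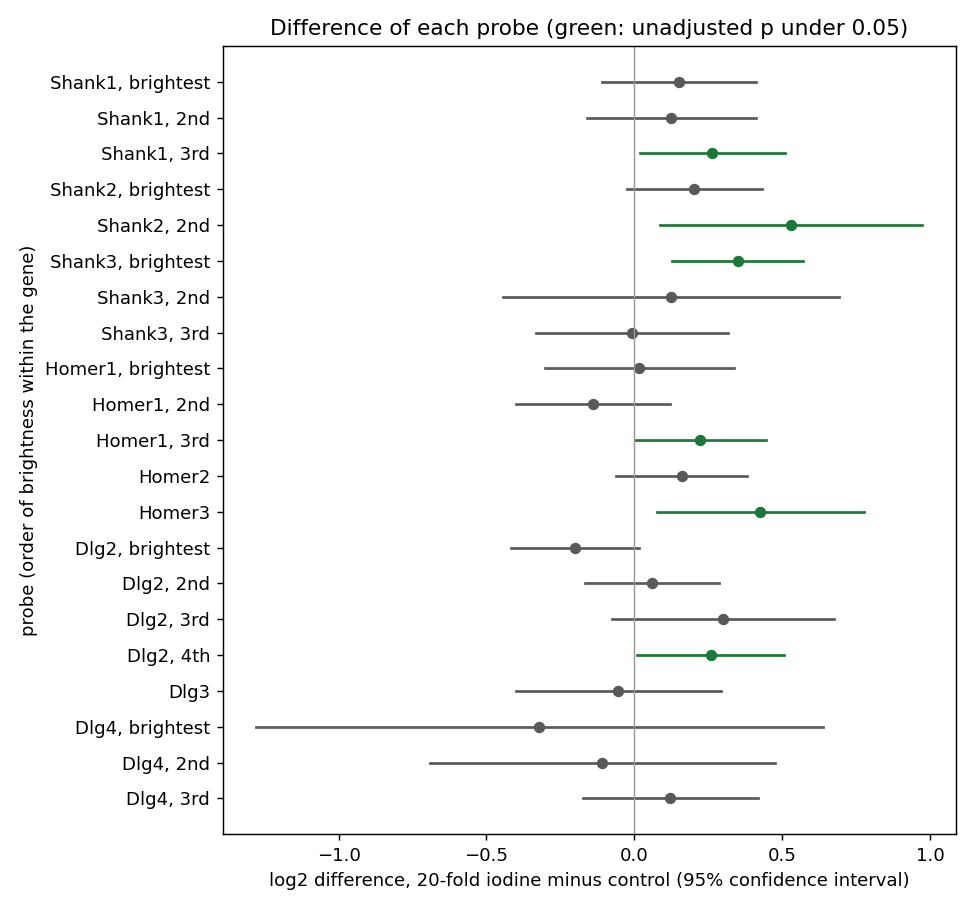
Log2 difference (20-fold iodine minus control, x axis) of each scaffold gene probe with its 95% confidence interval from limma on 2 arrays per group; green marks an unadjusted p under 0.05. The 6 green probes all lie above 0, and the widest interval is that of the brightest Dlg4 probe (-1.28 to 0.64).

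Agreement of probes could be judged in the 6 genes with several. Shank1 and Shank2 gave differences of a single sign, and Shank3, Homer1, Dlg2 and Dlg4 gave both signs, although in Shank3 the negative value was -0.01. Over the array 47.7% of 6092 genes with several probes kept had differences of both signs (65.5% of those with exactly 3), so 4 of 6 is near the background. Of the 12 pairs of a scaffold gene probe with the brightest of its gene, 4 had an unadjusted p under 0.05 (limma), where 13.5% of all pairs had one, and 0 passed the adjusted threshold. These were every Dlg2 pair and the pair of the third Shank3 probe. The Dlg2 pairs share the brightest Dlg2 probe, so they are not independent.

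**Figure D3:**
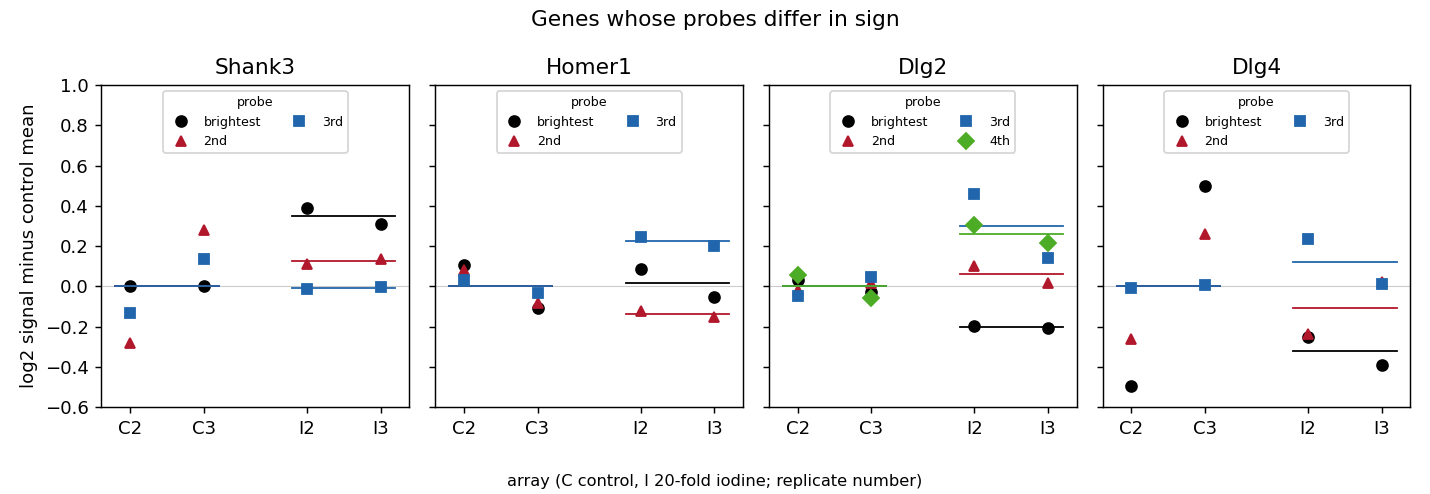
Log2 signal of each probe minus its control mean (y axis) on control (C) and 20-fold iodine (I) arrays, replicates 2 and 3, for the 4 genes whose probes differed in sign; horizontal lines are group means. In Dlg2 the brightest probe lies 0.20 below its control mean on the iodine side and the other probes above theirs, and in Dlg4 the controls of the brightest probe are as far apart as 9.21 and 10.20.

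Read by the brightest probe of each gene, 6 of the 9 genes were brighter in iodine and 3, Dlg2, Dlg3 and Dlg4, dimmer, where 45.7% of all 16793 genes were brighter. This split was not stable for every gene. Homer1, at 0.02, turned to a negative value with normexp, with median scaling, and without control replicate 3 or 20-fold iodine replicate 2. Dlg3 turned positive without control replicate 3 or 20-fold iodine replicate 3, and Dlg4 was at 0.18 without control replicate 3. Of the 4 Dlg2 probes, 3 had positive differences. The median difference was 0.15 over the 9 genes and -0.01 over all genes. The groups did not overlap in 6 of the 9 (Shank1, Shank2, Shank3, Homer2 and Homer3 brighter, Dlg2 dimmer), where 39.9% of all genes did not overlap (17.9% brighter and 21.9% dimmer). An unadjusted p under 0.05 in the brightest probe was found in 2 of 9, Shank3 and Homer3, against 6.36% of all genes. Over probes the groups were apart in 14 of 21, 12 of them brighter in iodine, where 41.6% of all probes were apart (23.2% brighter and 18.4% dimmer).

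A single array was often the brightest. The highest signal was on 20-fold iodine replicate 2 in 14 of the 21 probes and on 20-fold iodine replicate 3 in 0, where these arrays were highest in 28.5% and 25.6% of all probes. The lowest signal was on control replicate 2 in 12 of 21 (27.1% of all probes). Without 20-fold iodine replicate 2 the median over the 9 genes was 0.074.

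Choroid plexus markers, of tissue next to the hippocampus, set both iodine arrays apart, in opposite directions. The summed signal of 6 choroid plexus genes was 21930 and 24818 on the controls, 8089 on 20-fold iodine replicate 2 and 41027 on 20-fold iodine replicate 3, and all 6 were dimmer on 20-fold iodine replicate 2 than on any other array. The 6 thalamus and habenula genes were mixed. Tcf7l2 and Prkcd were at 7.89 and 8.08 on 20-fold iodine replicate 3, against 6.58 to 6.80 and 6.91 to 7.24 on the other arrays. Calb2 and Chrnb4 were also highest there. Pou4f1 was lowest there, at 11.40 against 11.48 to 11.91, and Slc17a6, at 7.34, was below the 7.52 of control replicate 2. The summed signal of the 6, in which Pou4f1 weighs most, was 4357 and 3253 on control replicates 2 and 3. It was 4049 and 3503 on 20-fold iodine replicates 2 and 3. The summed signal of 10 pyramidal and granule cell markers was 8124 on 20-fold iodine replicate 2 and 6919 to 7356 on the others, and that of 8 pan-neuronal markers was 76797 against 67794 to 73630. Both sums were lowest on 20-fold iodine replicate 3, at 6919 and 67794. The median difference was 0.03 for the pyramidal and granule cell markers, 5 of 10 brighter in iodine, and -0.03 for the pan-neuronal markers, 3 of 8 brighter. All 10 pyramidal and granule cell markers, Prox1 and Wfs1 among them, were measured. Median differences of other cell type lists were 0.09 for oligodendrocyte, -0.07 for astrocyte, 0.004 for microglia, -0.11 for interneuron, 0.10 for endothelial and 0.16 for thalamus and habenula markers. Striatum markers had 0.22, with 5 of 6 brighter in iodine, and meningeal fibroblast markers -0.26, with 5 of 6 dimmer.

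Pituitary markers had the largest median difference of the lists used here, 1.43 over the 5 of 6 genes tested, 4 of them brighter in iodine. The growth hormone gene Gh had 2.16 ± 0.31 (SE), the prolactin gene Prl 1.97 ± 0.68 (SE) and Cga, the common subunit of the pituitary glycoprotein hormones, 1.43 ± 0.19 (SE). Each of these was brighter on both iodine arrays than on either control. Prl read 7.54 and 9.42 in controls against 10.73 and 10.16 with iodine. Gh and Cga were dim in controls: Gh read 4.19 and 5.04 against 6.89 and 6.66 with iodine, and Cga 3.94 and 3.98 against 5.65 and 5.14. The summed signal of the 5 genes was 599.6 and 1164 in controls against 2330 and 1728 with iodine. The part of these marker differences in the scaffold values was not tested.

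Lists of genes that work with these scaffolds had medians from -0.01 to 0.11, against 0.15 for the 9 genes. In none of the lists did a gene pass the adjusted threshold (limma), and all counts here use the brightest probe of each gene. Other MAGUK and Lin7 genes had a median difference of 0.01, with 8 of 14 brighter in iodine. The MAGUK gene Mpp2 had 0.40 ± 0.08 (SE) and Magi3 -0.25 ± 0.09 (SE). Scaffold adaptors, among them the Dlgap genes that link the Dlg and Shank layers, had a median of 0.04, with 13 of 19 brighter. Lrrc7, which encodes densin-180, had 0.35 ± 0.11 (SE) and Dlgap3 0.20 ± 0.08 (SE). Signalling enzymes of the postsynaptic density had -0.01, with 5 of 11 brighter and the spinophilin gene Ppp1r9b at 0.13 ± 0.10 (SE).

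Of these related lists, the Homer binding partners (receptors, channels and other proteins) had the median nearest to that of the scaffold genes, 0.11. In iodine 7 of 8 were brighter, with Itpr1 and Dnm3 at only 0.01 each. The thalamus and habenula markers, at 0.16, were nearer still. In 3 of the 8 Homer binding partners the groups did not overlap. Their median deviation from each probe's own mean was 0.17 on 20-fold iodine replicate 2 and -0.05 on 20-fold iodine replicate 3. On control replicates 2 and 3 it was -0.07 and -0.09. The channel gene Trpc1 read 5.67 and 5.79 in controls and 6.08 and 6.10 in iodine, a difference of 0.36 ± 0.09 (SE). NMDA and AMPA receptors with their auxiliaries had 0.07, with 11 of 15 brighter, Grin2d at 0.26 ± 0.10 (SE) and Cacng2, which encodes stargazin, at -0.22 ± 0.11 (SE). For this list the median deviation was 0.13 and -0.04 on 20-fold iodine replicates 2 and 3, against -0.02 and -0.03 on control replicates 2 and 3. Synaptic adhesion genes had 0.02, with 10 of 17 brighter, Lrfn2 at 0.15 ± 0.08 (SE) and Adam22 at -0.13 ± 0.09 (SE). Scaffold genes of inhibitory synapses had -0.01 over 7 genes, 5 of them dimmer, with Insyn2a at -0.30 ± 0.11 (SE) and gephyrin (Gphn) at -0.16 ± 0.11 (SE).

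Immediate early genes, the class to which the short Homer1 form belongs, had a median of -0.16, with 13 of 16 dimmer in iodine. The groups did not overlap in 5 of the 16, where 39.9% of all genes did not. The controls differed: the list's median deviation from each probe's own mean was -0.08 on control replicate 2 and 0.15 on control replicate 3. It was -0.05 and -0.13 on 20-fold iodine replicates 2 and 3, so control replicate 2 lay no higher than 20-fold iodine replicate 2. Npas4 had 0.47 ± 0.08 (SE) and Egr1 -0.23 ± 0.08 (SE). The Homer1 probes were at 0.02, -0.14 and 0.22, and the list ran from -0.43 to 0.47. Npas4 alone formed its upper end, since the next highest gene, Nptx2, was at 0.17. A range this wide cannot tell whether a Homer1 probe went with these genes. Which probe reads the short form was not determined.

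**Figure D4:**
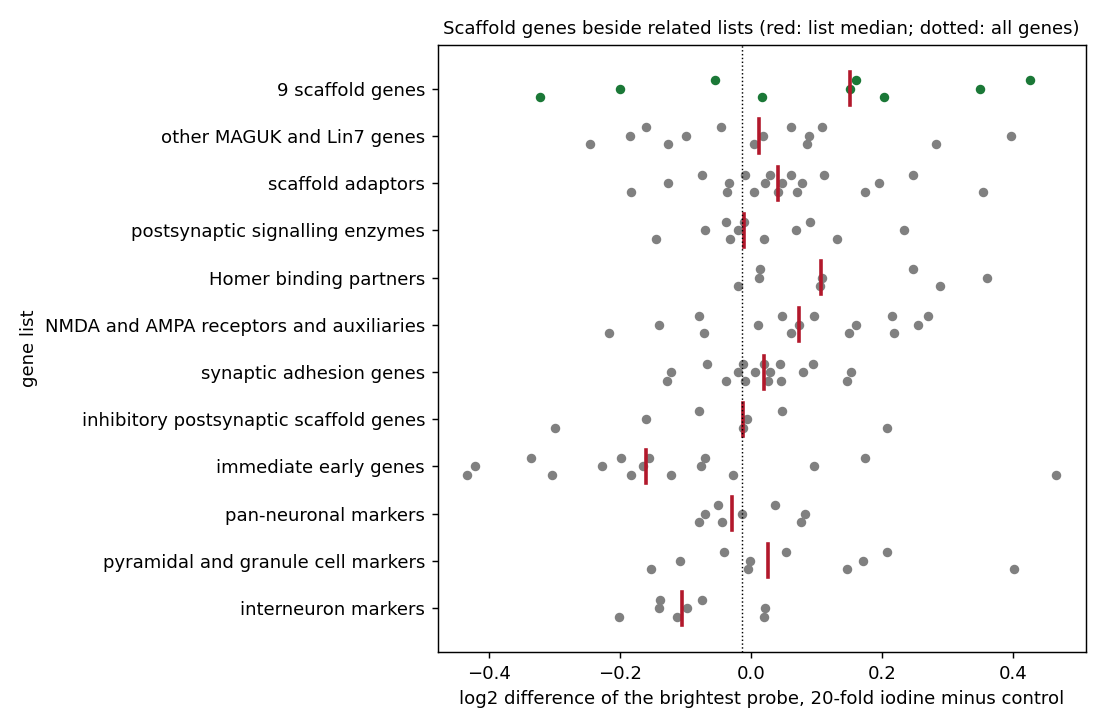
Log2 difference of the brightest probe (20-fold iodine minus control, x axis) of the 9 scaffold genes (green) and of the genes of related lists (grey); red bars are list medians and the dotted line is the median of all genes (-0.01). The scaffold genes spread from -0.32 to 0.43 around a median of 0.15, and the other lists have medians from -0.16 to 0.11.

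The 4-array pattern of the brightest Shank3 probe was compared with that of 186 genes of the other lists. Likeness was the root mean square distance between deviations from each probe's own mean. The nearest were Slc17a7, which encodes the vesicular glutamate transporter of hippocampal excitatory neurons, at a distance of 0.03, Gfap, an astrocyte filament gene, at 0.04, and Mpp2 at 0.05. Their differences were 0.40, 0.29 and 0.40. The comparison rests on 4 arrays and describes them only.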

How the data were processed

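The authors deposited the scanner output of 4 Agilent arrays, made (per the file headers) with Feature Extraction 12.1.1.1. As deposited, the intensity is the processed signal, background-subtracted within each array per the file headers; median spot and background intensities served 1 alternative. Other deposited columns, the spot flags, were used as given. All arrays lay on 1 slide, controls in columns 1 and 2 and iodine samples in columns 3 and 4, so position and group cannot be told apart.

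Non-control spots of a probe were averaged without outlier spots (47 to 70 per array; 0 saturated). Log2 signals were scaled to each array's 75th percentile (144.3 to 158.8). Of 56605 probes, 37535 to 37921 were well above background per array, and the 38228 that were so on at least 2 arrays and had a value on every array were tested (3 had not). The files hold no gene names: transcript accessions were matched to RefSeq (GRCm38.p6), naming 32994 probes. Probes with other identifiers may read the same genes and were not used. Coordinates are left out because the array design is on an earlier genome build.

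Each probe was fitted with limma 3.58.1 (lmFit and eBayes) in R 4.3.3; data.table (1.17.8) read the files and matplotlib 3.10.9 (Python 3.11.15) drew the plots. Probe pairs were tested as the log2 ratio to the gene's brightest probe. The code was tested on simulated data. The members, the gene lists and the tests were chosen with earlier results of these data known. The text names all 9 genes, from each related list the 2 genes with the smallest unadjusted p (cell type marker lists are given by summaries, and some genes of the rule are not reported here), and the 3 genes most like Shank3. The same replicate numbers occur in both groups, but the deviations of equally numbered arrays had a correlation of -0.02 over probes, so the numbers were not taken as pairs.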

Additional observations from a re-analysis of the deposited data

How the results depend on the processing

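In 13 alternative settings 0 scaffold probes (or genes, in the settings with 1 value per gene) passed the adjusted threshold, and over all probes 0 passed except with normexp (25) and with an intensity trend and robust variances (53). The median over the 9 genes was 0.089 with normexp and 0.074 to 0.20 without an array; it was 0.15 in the main setting. Genes with probes of opposite sign numbered 4, or 3 with normexp and 2 to 4 without an array. Probe pairs past the threshold numbered 148 with normexp, 1 of them of Dlg2, and 0 otherwise. Scaffold probes with an unadjusted p under 0.05 numbered 6, and 0 to 3 without an array. With the replicate block they numbered 2, and 0 probes in all passed; the numbers are not known to pair the samples. A lone array takes its spread from the opposite group. A slide block could not be fitted. The normexp setting used median in place of mean spot signals. The cause of these shifts was not tested. Signal limits the dim probes: the lowest processed signal well above background was 4.47 to 4.63 on the 4 arrays.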
